A study of Mus musculus with 12 samples.

Results

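The 10 genes described here encode the enzymes that make serine (Phgdh, Psat1, Psph), pass its carbon to folate (Shmt1, Shmt2, Mthfd2, Mthfd1l, Aldh1l2) and make proline (Aldh18a1, Pycr1). Their values were taken from Affymetrix expression arrays of whole mouse hearts, by the gene symbol that the platform's probe annotation gives to each probe set (a group of short probes read together). Of 45037 probe sets, 24 named 1 of these genes and no other, and they covered 9 of the 10 genes, out of 18193 gene symbols with a probe set of their own. Phgdh and Shmt1 had 4 probe sets each, Shmt2 4, Aldh18a1 5, Psat1 and Mthfd2 2 each, and Psph, Mthfd1l and Aldh1l2 1 each. No probe set was named Pycr1 in that annotation, so Pycr1 was not analysed here, and 2 probe sets that named Phgdh together with a second gene were left out.

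The 12 arrays came from 4 groups of 3 hearts: WT without doxorubicin (DOX), CHIP-altered without DOX, WT with DOX and CHIP-altered with DOX. DOX is an anthracycline that damages the heart, and CHIP, encoded by Stub1, is a cochaperone and ubiquitin ligase. The labels describe male C57BL/6J mice aged 8 to 10 weeks, given DOX once at 15 mg/kg, with hearts taken after 5 days and controls left without DOX; the study's methods describe saline-injected littermates, a higher dose and older mice. The labels call the altered genotype a CHIP knockout, whereas the methods describe a cardiac-specific CHIP transgene, so it is called CHIP-altered here. The brighter Stub1 probe set (1416580_a_at) read 1790 to 1950 in WT hearts and 5561 to 9817 in CHIP-altered hearts (log2 difference without DOX 2.34, adjusted p = 0.000225, limma), which goes against a knockout. The dimmer Stub1 probe set did not separate the genotypes, at 1037 to 1402 in WT and 1058 to 1255 in CHIP-altered hearts.

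Serine is built from a glycolytic intermediate in a short chain of reactions that Phgdh opens and Psph closes. Serine hydroxymethyltransferases then move a carbon of serine onto tetrahydrofolate, and inside mitochondria Mthfd2 and Mthfd1l oxidize that unit to formate, which leaves for purine and thymidylate synthesis. Proline is made from glutamate through Aldh18a1 and the Pycr enzymes and is a main residue of collagen. Mthfd2 is known for high expression in embryonic and dividing cells and low expression in most adult tissues, and several of these genes are known targets of ATF4, the transcription factor of the amino acid and mitochondrial stress responses.

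All values are linear intensities as deposited, without a known background or detection call. Array medians ran from 28.9 to 30.4, and 18 of the 24 probe sets averaged under 100, so most of these genes sat in the dim range of the array. Intensities were compared within a probe set and never between genes. Differences are log2 differences of (intensity + 32) with their standard error (SE), which understates the change of dim genes, and the test was limma over all 45037 probe sets with Benjamini-Hochberg adjustment, called at an adjusted p under 0.05. The cardiomyocyte marker list (8 of 8 genes found) summed to 116320 to 142940 per array, so the arrays read as heart. The third CHIP-altered heart without DOX had the lowest mean correlation with its own group (0.990, others 0.992 to 0.997).

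Promoters of 2 genes are shown because Mthfd2 and Aldh18a1 carried the differences below and moved together across hearts. Both are RefSeq sequences of GRCm38.p6, from 250 bases before to 50 bases after the start of the gene, read 5′ to 3′ on the gene's own strand. Capitals mark CACGTG, the E-box that MYC family factors read.
Mthfd2, chr6:83317555-83317854, minus strand: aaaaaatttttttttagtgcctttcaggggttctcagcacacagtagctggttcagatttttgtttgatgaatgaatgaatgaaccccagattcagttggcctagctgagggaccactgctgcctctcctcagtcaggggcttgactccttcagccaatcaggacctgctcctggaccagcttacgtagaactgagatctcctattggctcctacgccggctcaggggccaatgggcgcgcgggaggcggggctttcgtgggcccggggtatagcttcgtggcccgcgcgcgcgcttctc
Aldh18a1, chr19:40588414-40588713, minus strand: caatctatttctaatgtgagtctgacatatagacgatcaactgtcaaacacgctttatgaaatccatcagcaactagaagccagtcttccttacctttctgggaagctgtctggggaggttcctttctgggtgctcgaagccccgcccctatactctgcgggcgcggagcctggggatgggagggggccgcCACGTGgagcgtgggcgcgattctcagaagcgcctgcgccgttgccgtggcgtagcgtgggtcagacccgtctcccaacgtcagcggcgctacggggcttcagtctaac
The E-box of Aldh18a1 began 59 bases before the start, and the Mthfd2 window held none. TGATGNAA, the composite element that ATF4 reads with a C/EBP partner, was in neither window. Searched on both strands, the 10 promoters listed for 9 of the genes held TGATGNAA once, in Pycr1, and CACGTG once, in Aldh18a1. Of all 32851 promoters of that length, 3.97% held TGATGNAA and 7.15% held CACGTG. Aldh1l2 had no entry.

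Without DOX, CHIP-altered hearts had more Mthfd2 and more Aldh18a1 RNA than WT hearts. Mthfd2 was higher by 0.85 (SE 0.12) and 1.83 (SE 0.29) on the log2 scale at its probe sets, and Aldh18a1 passed the test at 2 of its 5 probe sets, by 0.41 and, at a probe set below every array's median, by 0.21. Shmt1 and Shmt2, the gateway from serine to folate, gave differences between -0.09 and 0.16, none called. In counts, 4 of the 24 probe sets were called higher and 0 lower, where 1.81% of all probe sets were called in either direction. The median difference of the 24 was 0.16, against -0.0036 over all probe sets.

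**Figure D1:**
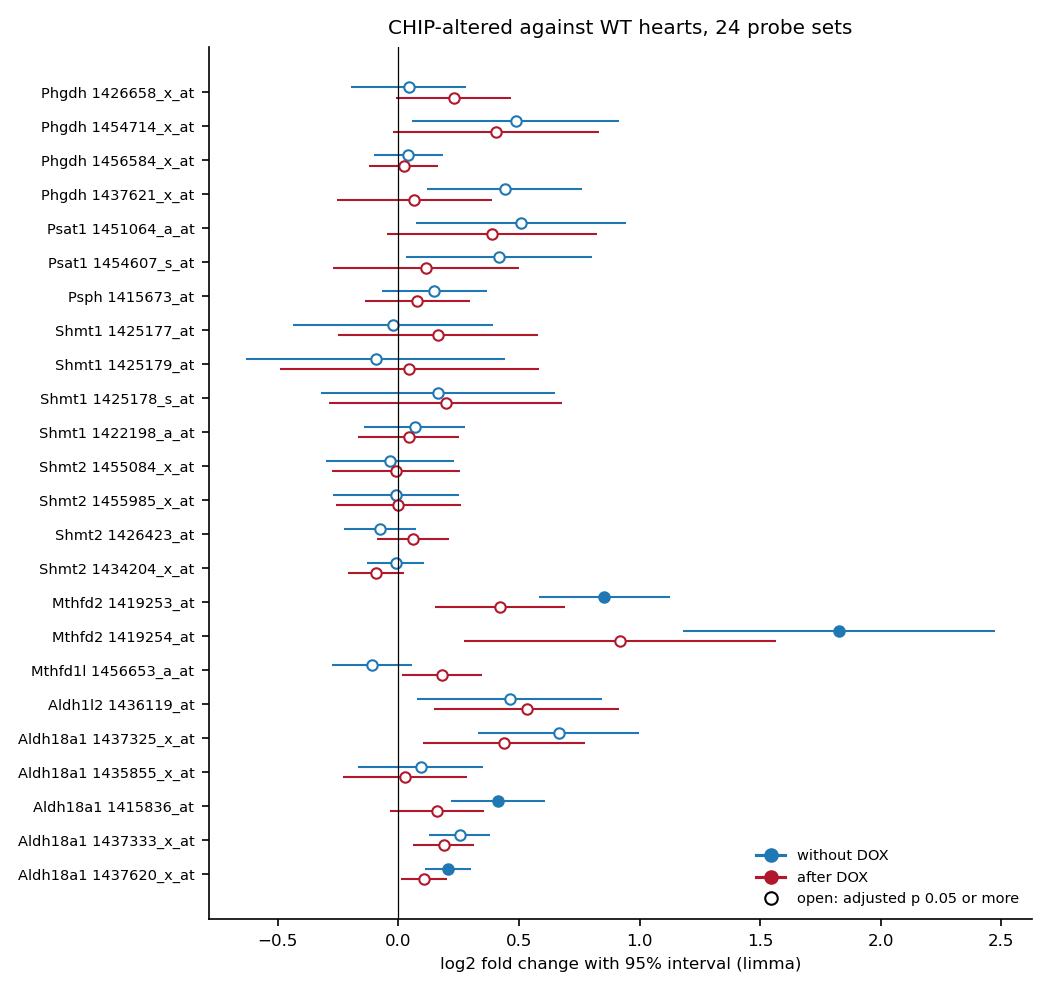
Log2 difference between CHIP-altered and WT hearts at each of the 24 probe sets (rows, brightest first within a gene), with 95% intervals from limma, without DOX (blue) and after DOX (red). Filled points passed an adjusted p of 0.05: the 2 probe sets of Mthfd2 and 2 of Aldh18a1 without DOX, and none after DOX.

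Mthfd2, the mitochondrial methylenetetrahydrofolate dehydrogenase and cyclohydrolase, had the largest difference of the 9 genes. At its brighter probe set (1419253_at) the WT hearts without DOX read 65.1, 60.6 and 58.7, and the CHIP-altered hearts 106, 156 and 155. After DOX the WT hearts read 51.8, 55.2 and 60.0, and the CHIP-altered hearts 80.8, 74.2 and 103. Every CHIP-altered heart lay above every WT heart, with or without DOX. The log2 difference without DOX was 0.85 (SE 0.12, 95% interval 0.58 to 1.12, limma adjusted p = 0.014), or 1.15 with nothing added.

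The dimmer Mthfd2 probe set (1419254_at) showed the same order over a wider range. WT hearts without DOX read 23.4, 23.0 and 31.3, below the added 32, and the CHIP-altered hearts read 86.3, 227 and 248. After DOX the WT hearts stayed at 28.2, 26.2 and 16.5, while the CHIP-altered hearts read 84.2, 50.2 and 88.6. Again no WT heart reached a CHIP-altered heart, and the first CHIP-altered heart without DOX was the lowest of its group at both probe sets. The WT readings lay near or below the array medians and are not shown to be above background, so the size of the difference depends on the added value: log2 1.83 (SE 0.29, adjusted p = 0.0196) with 32 added and 2.72 with nothing added. Its correlation with the brighter probe set over the 12 arrays was 0.97, or 0.80 after the group means were removed.

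**Figure D2:**
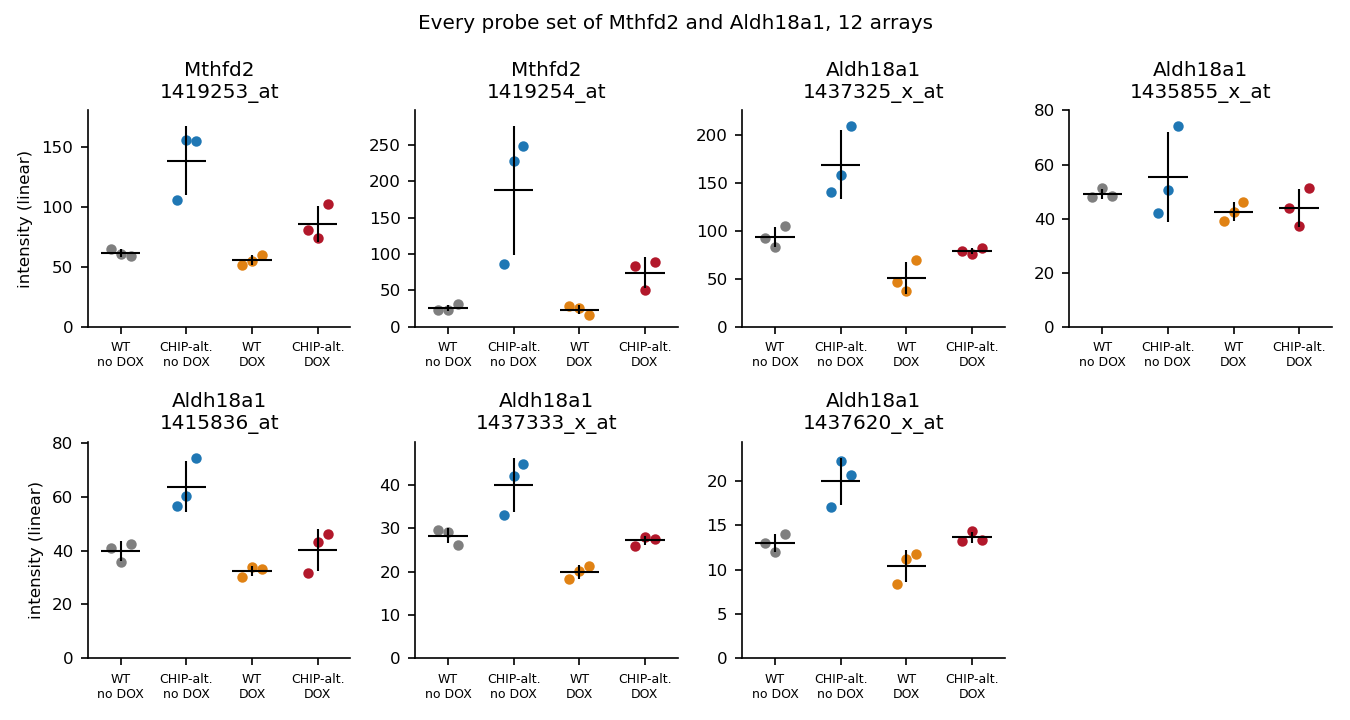
Linear intensity of each Mthfd2 and Aldh18a1 probe set in the 12 hearts (points), with group means (horizontal bars) and SD (vertical bars, n = 3). The CHIP-altered hearts without DOX, for example 106 to 156 at 1419253_at, lie above all WT hearts at every panel but 1435855_x_at.

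These Mthfd2 calls did not hold in every fit. At the brighter probe set the adjusted p was 0.0673 without WT no DOX replicate 2 and 0.0536 without replicate 3, and at the dimmer one it was 0.0571, 0.0857 and 0.0614 without each WT no DOX replicate in turn and 0.052 without CHIP-altered no DOX replicate 3. With only the arrays compared in the fit it was 0.067 and 0.0974, and by the methods' t-test with adjustment 0.266 and 0.323.

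Among the other mitochondrial folate genes, Aldh1l2, which oxidizes formyl tetrahydrofolate to carbon dioxide with reduction of NADP, also read higher in CHIP-altered hearts without being called. Without DOX the WT hearts read 65.8, 56.9 and 65.1 and the CHIP-altered hearts 96.0, 114 and 86.1. After DOX the WT hearts read 36.0, 52.4 and 59.4 and the CHIP-altered hearts 61.5, 78.0 and 122. The genotypes did not overlap in either setting, with differences of 0.46 (SE 0.17, adjusted p = 0.242) and 0.53 (SE 0.17, adjusted p = 0.174).

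Shmt2, the mitochondrial serine hydroxymethyltransferase, was not called between the genotypes. Its brightest probe set read 254 to 290 in WT and 212 to 299 in CHIP-altered hearts without DOX, and 241 to 294 and 247 to 293 after DOX. The 95% interval of the genotype difference without DOX ran from -0.30 to 0.23, so a change as large as that of Mthfd2 lay outside it. Shmt1, its cytosolic counterpart, read 169 to 216 in WT and 130 to 251 in CHIP-altered hearts without DOX, with an interval of -0.44 to 0.39. In the CHIP-altered hearts without DOX, Shmt1 was highest in replicate 2 and lowest in replicate 3 at all 4 of its probe sets. Mthfd1l, the synthetase that releases formate, read 50.4 to 55.2 in WT and 40.1 to 56.5 in CHIP-altered hearts without DOX (-0.11, SE 0.07, adjusted p = 0.604).

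In the proline branch, Aldh18a1, the pyrroline-carboxylate synthase that commits glutamate to proline, read higher in CHIP-altered hearts at 4 of its 5 probe sets without overlap. At the brightest (1437325_x_at) the WT hearts without DOX read 92.9, 83.7 and 105 and the CHIP-altered hearts 140, 158 and 209. The log2 difference at this probe set was 0.67 (SE 0.15), but its limma adjusted p of 0.0586 did not pass. This probe set passed under limma with a trended variance (adjusted p = 0.0213), array weights (0.0461), the replicate block (0.0239) or 1 probe set per gene (0.0389). It did not pass with only the arrays compared or by the methods' t-test. The probe sets that passed in the main fit were dimmer. At 1415836_at the WT hearts read 35.7 to 42.6 and the CHIP-altered hearts 56.6 to 74.5 (0.41, SE 0.09, adjusted p = 0.0476).

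At 1437620_x_at, which read below the array median in every heart and is not shown to be above background, the Aldh18a1 readings were 11.96 to 13.97 in WT and 17.0 to 22.2 in CHIP-altered hearts (0.21, SE 0.04, limma adjusted p = 0.047, or 0.61 with nothing added). The fifth probe set, 1435855_x_at, overlapped between genotypes at 47.9 to 51.4 against 42.0 to 74.1, with a difference of 0.09 (SE 0.12). Both calls were lost in most fits that left out an array: 1415836_at kept its call only without CHIP-altered DOX replicate 1, and 1437620_x_at only without CHIP-altered no DOX replicate 1 or WT DOX replicate 1. Neither was called with only the arrays compared (adjusted p = 0.104 and 0.133) or with 64 added in place of 32 (0.0525 and 0.0507).

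In the serine branch no probe set was called in any comparison. Psat1, the aminotransferase in the middle of the chain, read 32.4, 42.0 and 37.3 in WT hearts without DOX and 55.2, 59.0 and 88.2 in CHIP-altered hearts. These groups did not overlap, and the difference was 0.51 (SE 0.19, adjusted p = 0.257). After DOX the WT hearts spread over 35.0, 89.5 and 66.5 and overlapped the CHIP-altered hearts at 99.9, 87.8 and 81.8. The highest WT heart lay above 2 of the CHIP-altered hearts.

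The 4 Phgdh probe sets gave different pictures. Phgdh is the dehydrogenase that opens the serine chain, and its brightest probe set read 87.4 to 118 in WT and 101 to 113 in CHIP-altered hearts without DOX (0.04, SE 0.11). The second (1454714_x_at) read 66.3 to 83.3 and 69.1 to 149 (0.49, SE 0.19, adjusted p = 0.274), with replicates 2 and 3 of the CHIP-altered hearts high at 137 and 149. The third (1456584_x_at) overlapped (0.04, SE 0.06), and the dimmest (1437621_x_at) did not, at 31.0 to 42.4 and 44.2 to 78.4 (0.44, SE 0.14, adjusted p = 0.179). The correlation of the second with the brightest Phgdh probe set was 0.42 over 12 arrays, against 0.85 with the brighter Mthfd2 probe set. Psph, the phosphatase that releases serine, read 63.7 to 73.1 and 66.0 to 100 (0.15, SE 0.10, adjusted p = 0.589).

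**Figure D3:**
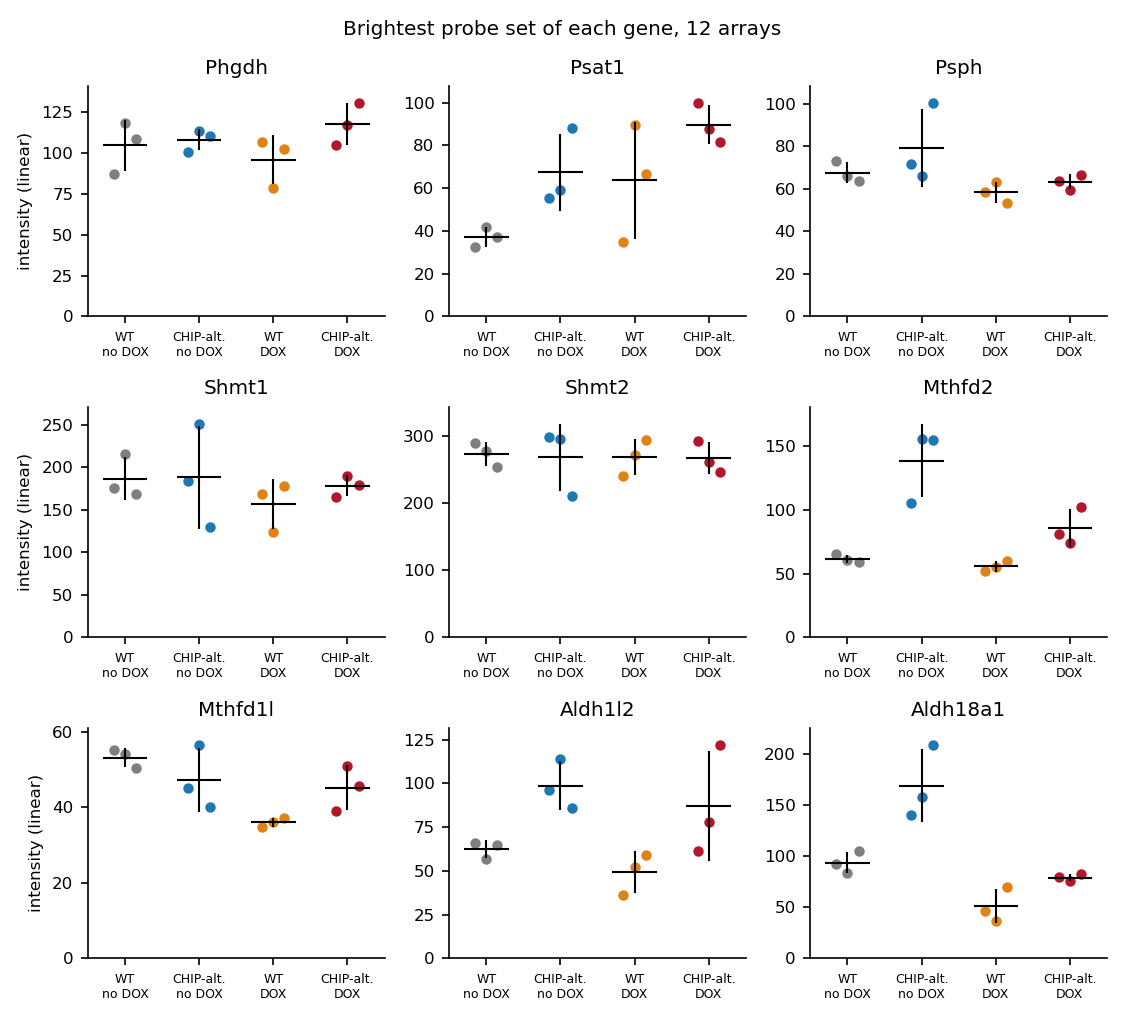
Linear intensity of the brightest probe set of each gene in the 12 hearts (points; bars, group mean and SD, n = 3), each panel on its own scale from 0. Mthfd2, Aldh18a1, Aldh1l2 and Psat1 separate the genotypes without DOX, whereas Shmt2 stays between 212 and 299 in all groups.

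Markers of other cell types also differed between the genotypes without DOX. The 8 fibroblast markers all had positive differences, their sum ran from 11137 to 14241 in WT and from 14980 to 22050 in CHIP-altered hearts, and Col1a1, a collagen gene, was called (1.13, adjusted p = 0.048). The 4 smooth muscle markers summed to 1857 to 2781 in WT and 7356 to 13728 in CHIP-altered hearts, a sum carried by Acta2, the sole one called, at 2.41; the median difference of the 4 was 0.33. The 8 cycling-cell markers summed to 1248 to 1344 and 1389 to 1549, without overlap, with a median difference of 0.12 and none called. Top2a and Mki67 lay below that median, at 0.04 and 0.11. The part of these markers in the Mthfd2 and Aldh18a1 differences was not tested, and in whole hearts more cells of a type and more RNA per cell cannot be told apart. Cardiomyocyte marker sums overlapped, at 135010 to 142940 and 132260 to 138450.

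After DOX the genotype difference pointed the same way for most of the set but no probe set was called, against 0.941% of all probe sets. At an unadjusted p under 0.05, 7 were higher and 0 lower by limma, where 15.5% of all probe sets passed in either direction, and the methods' t-test put 5 under it, where 11.8% of all did. The difference was positive at 22 of the 24, with a median of 0.14 against 0.0075 over all probe sets. Mthfd2 differed by 0.42 (SE 0.12, adjusted p = 0.136) and 0.92 (SE 0.29, adjusted p = 0.166). At the dimmer probe set the size again depended on the added value, with 1.65 when nothing was added (limma adjusted p = 0.0497). The WT readings there are not shown to be above background. At the brightest Aldh18a1 probe set the WT hearts read 46.4, 37.0 and 69.9 and the CHIP-altered hearts 79.3, 75.6 and 82.4, without overlap (0.44, SE 0.15, adjusted p = 0.2). The fibroblast marker sums stood apart after DOX as well, at 9567 to 10573 in WT and 11965 to 13621 in CHIP-altered hearts. Their median difference was 0.58, with 1 of the 8 called higher. The macrophage sums also stood apart, at 3092 to 4116 and 4553 to 5553, with a median difference of 0.44 and none of the 8 called. The part of these markers in these values was not tested.

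Counted over both settings, 10 of 24 probe sets had every CHIP-altered heart above every WT heart without DOX, where 8.7% of all probe sets did, and 8 of 24 did after DOX, where 11.2% of all did. With 1 probe set a gene, the genes were 4 of 9 in each setting. Mthfd2, Aldh18a1 and Aldh1l2 were among them both times, joined by Psat1 without DOX and by Mthfd1l after DOX. The opposite order, every CHIP-altered heart below every WT heart, was seen at 0 of 24 without DOX and 1 after DOX. That was the dimmest Shmt2 probe set, at 22.0 to 29.3 in WT and 20.8 to 21.7 in CHIP-altered hearts. Of all 45037 probe sets, 4797 and 4114 had that order. These probe sets share hearts and, within a gene, share transcripts, so they are not independent.

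With DOX, probe sets were called lower for Aldh18a1 in CHIP-altered hearts and for Mthfd1l in WT hearts. For neither gene was the response called different between the genotypes. In CHIP-altered hearts 3 of 24 probe sets were called lower and 0 higher, all of Aldh18a1, where 2.2% of all probe sets were called. At the brightest, the CHIP-altered hearts without DOX read 140, 158 and 209 and those with DOX 79.3, 75.6 and 82.4. The log2 difference was -0.84 (SE 0.15, limma adjusted p = 0.0251), or -1.08 with nothing added. At this probe set the CHIP-altered hearts with DOX read below all 3 WT hearts without DOX, of which the lowest read 83.7. At 1415836_at they overlapped those WT hearts, at 31.5 to 46.4 against 35.7 to 42.6. They also overlapped at 1437333_x_at, at 26.0 to 28.1 against 26.3 to 29.5. The other called probe sets changed by -0.41 (1415836_at, adjusted p = 0.0461) and -0.28 (1437333_x_at, adjusted p = 0.0387).

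**Figure D4:**
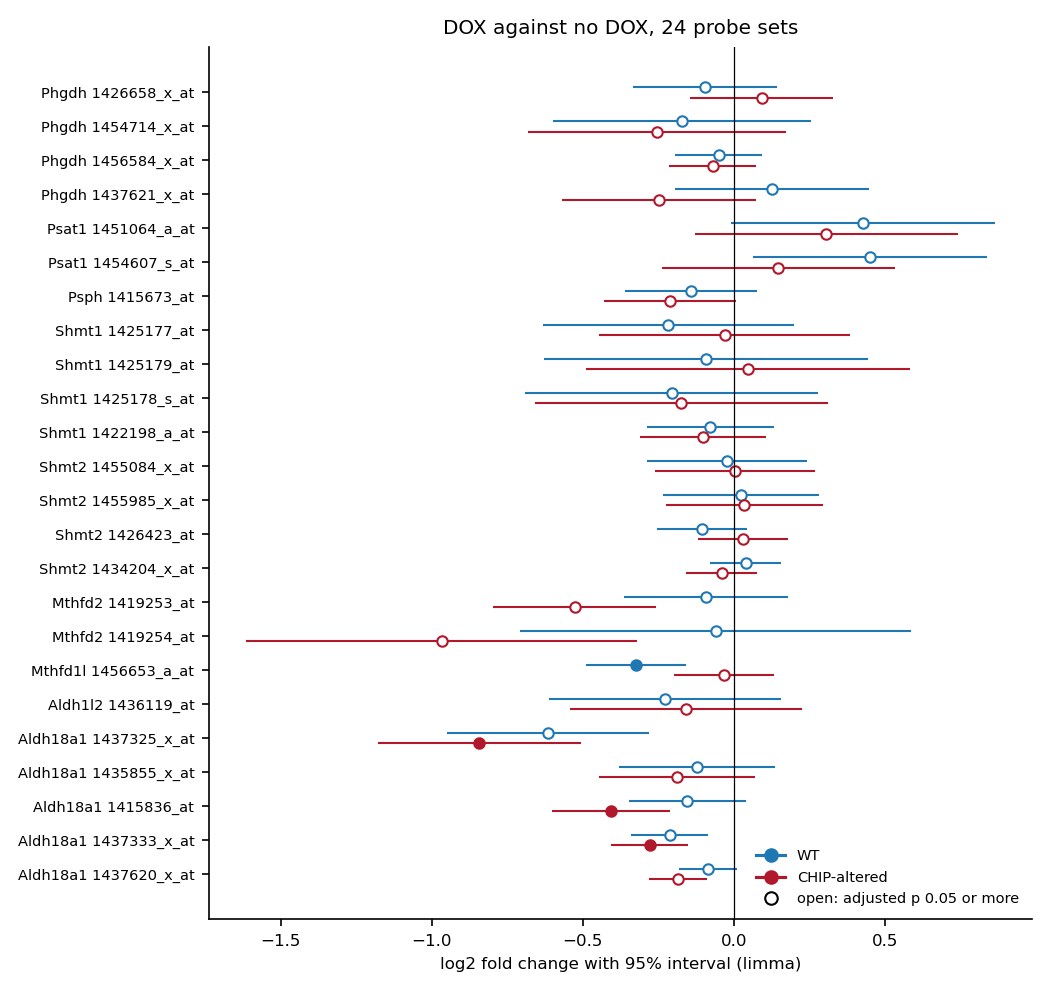
Log2 difference of DOX against no DOX for the 24 probe sets, with 95% intervals from limma, in WT (blue) and CHIP-altered hearts (red). Filled points passed an adjusted p of 0.05: Mthfd1l in WT hearts (-0.32) and 3 Aldh18a1 probe sets in CHIP-altered hearts (-0.84 to -0.28).

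The same Aldh18a1 probe set fell short of a call in WT hearts, where DOX moved it from 92.9, 83.7 and 105 to 46.4, 37.0 and 69.9. Those groups did not overlap either (-0.61, SE 0.15, adjusted p = 0.0583), and the difference between the responses was -0.23 (SE 0.21, adjusted p = 0.788). The WT change was called in 6 of 11 alternatives other than leaving out an array, and in 2 of the 12 fits that left one out. The call in CHIP-altered hearts was lost without CHIP-altered no DOX replicate 3 (adjusted p = 0.0506), without each CHIP-altered DOX replicate in turn (0.0932, 0.0803 and 0.0536) and with only the arrays compared (0.0806). The calls at 1415836_at and 1437333_x_at were lost in 11 and 10 of the 12 fits that left out an array.

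In WT hearts, 1 of 24 probe sets was called lower after DOX and 0 higher, where 3.06% of all probe sets were called. That was Mthfd1l, which read 55.2, 54.1 and 50.4 without DOX and 34.9, 36.2 and 37.1 with it. These groups were tight and far apart, and the change was -0.32 (SE 0.07, adjusted p = 0.0491). In CHIP-altered hearts Mthfd1l overlapped at 45.2, 56.5 and 40.1 against 39.2, 51.0 and 45.6 (-0.03, SE 0.07), and the difference between the responses, 0.29 (SE 0.10, adjusted p = 0.523), was not called. The WT call was lost in 9 of the 12 fits that left out an array. It was also lost with quantile normalization (limma adjusted p = 0.051), with 64 added (0.0588) and by the methods' t-test (0.149). The macrophage marker sums moved with it in WT hearts, from a range of 5167 to 6638 to a range of 3092 to 4116, with Cd68 and Csf1r called lower by -0.95 and -0.75. The fibroblast marker sums fell there too, from a range of 11137 to 14241 to a range of 9567 to 10573. The list medians were -0.69 for macrophages and -0.63 for fibroblasts. The part of these markers in the Mthfd1l change was not tested.

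With DOX, Mthfd2 differed in WT hearts by -0.09 (SE 0.12) and -0.06 (SE 0.29). In CHIP-altered hearts the differences were -0.53 (SE 0.12, adjusted p = 0.0577) and -0.97 (SE 0.29, adjusted p = 0.125), neither called, with no overlap at the brighter probe set. The brighter one was called in 5 of 11 alternatives other than leaving out an array, and the dimmer one in 0 of 10. In the 12 fits that left one out they were called in 2 and 1. The test of the difference between those responses gave -0.43 (SE 0.17, adjusted p = 0.552) and -0.91 (SE 0.41, adjusted p = 0.577). Over the 24 probe sets that test called 0, as it did over all 45037. At an unadjusted p under 0.05, 1 probe set was higher (Mthfd1l) and 1 lower (Mthfd2), a share close to the 8.69% of all probe sets, and the replicates compared leave wide intervals, such as -0.82 to -0.05 for the brighter Mthfd2 probe set.

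Psat1 had the largest positive differences with DOX of the 9 genes, none of them called. In WT hearts its brighter probe set went from 32.4, 42.0 and 37.3 to 35.0, 89.5 and 66.5, so that 1 treated heart stayed inside the untreated range (0.43, SE 0.19, adjusted p = 0.276). At its dimmer probe set (1454607_s_at) the WT hearts went from 17.5, 21.3 and 19.1 to 22.9, 54.8 and 40.1, without overlap (0.45, SE 0.17, adjusted p = 0.193). In CHIP-altered hearts the brighter one went from 55.2, 59.0 and 88.2 to 99.9, 87.8 and 81.8 (0.30, SE 0.19, adjusted p = 0.515). The 3 cycling-cell markers Top2a, Cdk1 and Mcm5 were called lower with DOX in CHIP-altered hearts, by -0.62, -0.39 and -0.72, as were the fibroblast markers Col1a1 and Lum, by -1.25 and -0.99, Acta2, by -1.91, and the cardiomyocyte marker Ryr2, by -0.50. In WT hearts Lum was called lower by -1.53. The part of these genes in the Aldh18a1 and Mthfd1l changes was not tested. Of the other lists, the macrophage (8 genes found), endothelial (6), adipocyte (2), erythroid (3), lymphocyte (4) and liver (3) markers had no call between genotypes or with DOX in CHIP-altered hearts, and in WT hearts DOX lowered Cd68 and Csf1r of the macrophage list, lowered Alas2 of the erythroid list by -3.21 and raised Ttr of the liver list by 1.83.

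Across the 12 hearts Mthfd2 ran with Aldh18a1 (Pearson r = 0.84) and with Aldh1l2 (r = 0.82), and not with Shmt2 (r = -0.18) or Mthfd1l (r = 0.24), brightest probe sets throughout. With the group means removed, r was lower, at 0.50 for Aldh18a1 and 0.51 for Aldh1l2. Psat1 and Phgdh had r = 0.09, although they catalyse consecutive steps. These correlations describe 12 arrays that share genotype, treatment and scale, and carry no test.

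**Figure D5:**
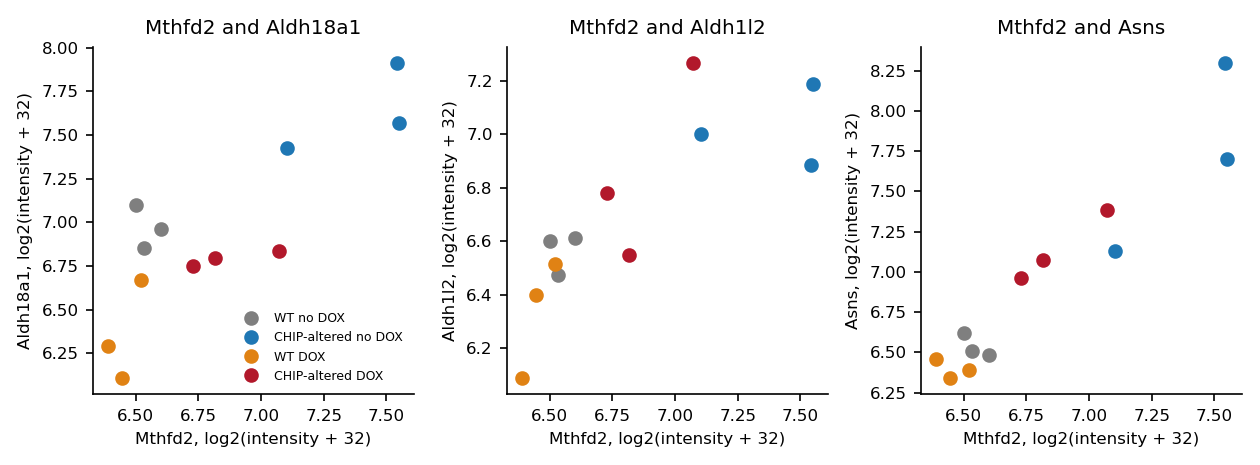
Mthfd2 (brighter probe set, horizontal) against Aldh18a1, Aldh1l2 and Asns (vertical), all as log2(intensity + 32), 1 point per heart, coloured by group. The CHIP-altered hearts without DOX have the 3 highest Mthfd2 and Aldh18a1 values, whereas the highest Aldh1l2 value is that of a CHIP-altered heart with DOX, and r over the 12 hearts was 0.84, 0.82 and 0.96.

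Among 7905 other genes with a mean intensity of 100 or more, the pattern closest to the brighter Mthfd2 probe set was that of Hspa4, which encodes a heat shock protein of the Hsp110 family (r = 0.97), followed by Slc25a47, Dhx9, Tmem9b and Asns (r = 0.96 each). With the group means removed these 5 had r = 0.85, 0.76, 0.64, 0.52 and 0.79. Slc25a47 and Asns reached the mean of 100 only through the CHIP-altered hearts, with WT group means of 82.3 to 92.7 and 52.2 to 60.8, so the filter itself favoured their pattern. Hspa4 averaged 319 in WT and 473 in CHIP-altered hearts without DOX, and 306 and 397 after DOX. For the mean of the standardized values of the 9 genes, the closest were Rnf5, Cd151, Mrpl34, Msantd4 and Mrpl16, at r = 0.94 to 0.95. That mean ran from -0.23 to 0.10 in WT and from 0.41 to 1.00 in CHIP-altered hearts without DOX, and from -0.97 to -0.36 and from 0.00 to 0.42 after DOX.

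Asns, asparagine synthetase, is a textbook ATF4 target and belonged to a list of ATF4 and its targets of which 20 of 21 genes were found. Without DOX it read 57.3, 58.9 and 66.2 in WT and 108, 176 and 283 in CHIP-altered hearts, without overlap (1.18, SE 0.23, adjusted p = 0.0407). Chac1, a glutathione-degrading enzyme, was also called higher (0.71, SE 0.15, adjusted p = 0.0493), and Eif4ebp1, a repressor of cap-dependent translation, was called lower (-0.62, SE 0.12, adjusted p = 0.0361). In fits that left out an array Asns was called in 1 of 12, Chac1 in 2 and Eif4ebp1 in 6, and with only the arrays compared Asns and Chac1 were not called. The median of the 20 was 0.21 against -0.0036 over all probe sets. Atf4 itself differed by 0.37 (SE 0.15, adjusted p = 0.291) and Atf5 by 1.05 (SE 0.27, adjusted p = 0.0872), neither called.

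After DOX only Eif4ebp1 of that list was called between genotypes, lower by -0.69, and the median was 0.05. In WT hearts DOX raised Eif4ebp1 by 0.59, the sole call. These 2 calls held in 3 and 5 of the 12 fits that left out an array. In CHIP-altered hearts DOX called none of the 20, Asns included. Asns after DOX read 55.8, 48.9 and 51.8 in WT and 102, 92.8 and 135 in CHIP-altered hearts, so the genotypes did not overlap there either.

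Outside the ATF4 list, the other genes of the pathways held these calls. Of 30 further serine, glycine and folate genes found out of 38, 0 were called higher and 2 lower in CHIP-altered hearts without DOX, where 1.81% of all probe sets were called, with a median of -0.0057. Gnmt, which spends methyl groups on glycine, read 168, 159 and 158 in WT and 54.5, 56.3 and 55.8 in CHIP-altered hearts (-1.15, SE 0.16, adjusted p = 0.0138), and it was lower after DOX too (-1.12, SE 0.16, adjusted p = 0.0246). The Gnmt call without DOX held in all 12 alternatives and in 10 of the 12 fits that left out an array, failing without WT no DOX replicate 2 or 3. After DOX it held in 10 and 10, failing without CHIP-altered DOX replicate 2 or 3. Mtr, methionine synthase, read 287 to 368 and 169 to 214 (-0.77, SE 0.16, adjusted p = 0.0498), a call that held in 1 of those 12 fits. Mthfd2l, the isozyme of Mthfd2, differed by 0.25 (SE 0.12, adjusted p = 0.416).

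With DOX in WT hearts, 4 of these 30 genes were called, where 3.06% of all probe sets were. Ahcy, which hydrolyses S-adenosylhomocysteine, rose there from a range of 306 to 353 to a range of 521 to 815 (0.97, SE 0.22, adjusted p = 0.0446). Slc19a1, a folate carrier, Folr2, a folate receptor of macrophages, and the dim Agxt were called lower there, by -0.27, -0.82 and -0.18. Cd68 and Csf1r were called lower in the same hearts, and the part of macrophage markers in these 3 changes was not tested. In CHIP-altered hearts Mtfmt, which formylates the mitochondrial initiator tRNA, was called lower (-0.31, SE 0.06, adjusted p = 0.04). Of 15 further proline, ornithine and glutamate genes found out of 18, the sole call in any comparison was Glul, glutamine synthetase, which DOX raised in WT hearts from a range of 2148 to 2673 to a range of 3515 to 4570 (0.73, SE 0.13, adjusted p = 0.0268). With an array left out, Ahcy, Slc19a1, Folr2, Agxt, Mtfmt and Glul kept their calls in 5, 9, 6, 7, 3 and 8 of 12 fits. Without DOX the smallest p values between genotypes were those of Glud1 (-0.20, adjusted p = 0.283) and P4ha1, a collagen prolyl hydroxylase (0.60, adjusted p = 0.307).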

How the data were processed

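RNA of 12 mouse hearts was hybridised to Affymetrix arrays. The deposited table holds linear intensity values, which the authors made with Affymetrix Expression Console (per the labels; version, summary method and genome build are not given in the sources used here). They were analysed as deposited: 32 was added, log2 was taken, and limma 3.58.1 in R 4.3.3 fitted the 4 group means over all 45037 probe sets, tested on simulated data beforehand. The number of arrays limits the precision. Replicates are labelled biological, and their numbers gave no sign of pairing hearts.

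Of the probe sets, 34945 had 1 gene symbol in the platform annotation, 932 several and 9160 none. All member probe sets, every list member called, and otherwise the 2 with the smallest p were named, plus Stub1 and the 5 closest patterns. Where a gene stood for its list, its brightest probe set was used. The members and lists were chosen with earlier results of these data known. Marker lists also covered macrophages, endothelium, adipocytes, erythroid cells, lymphocytes and liver. Alternatives were normalization, the added value, a dim filter, variance options, the arrays in the fit, a replicate block and leaving out each array.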

Additional observations from a re-analysis of the deposited data

How the results depend on the processing

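The 8 called differences kept their direction in all 179 values from the alternatives, and none reversed; the 46 uncalled ones that were recomputed kept theirs in 1011 of 1049. Counts of called probe sets moved more, and the cause was not tested unless named. For DOX in WT hearts (1 called) they were 0 with quantile normalization, with 64 added, with the methods' t-test and above a mean intensity of 100, where only 6 of the 24 probe sets remain; 2 with a trended variance, array weights, the replicate block, 16 added or 1 probe set per gene; and 3 with nothing added. For DOX in CHIP-altered hearts (3 called) they were 5 with median centring or a trended variance, 1 with array weights, and 0 above a mean of 100, with only the arrays compared or by the t-test. For genotype without DOX (4 called) they were 5 with quantile normalization, a trended variance or the replicate block, and 2 with 64 added. They were 2 of 9 with 1 probe set per gene, and 0 above a mean of 100, with only the arrays compared or by the t-test. For genotype after DOX (0 called) it was 1, Mthfd2, with nothing added. Leaving out each array gave 0 to 3, 0 to 5, 0 to 5 and 0 to 1 in these comparisons, and 0 throughout for the interaction. The methods' t-test put 5, 5, 9 and 5 of the 24 under an unadjusted p of 0.05, where 15%, 11.9%, 11% and 11.8% of all probe sets passed.

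Replicate numbers gave no sign of pairing hearts. Deviations from the group means of same-numbered hearts correlated between -0.25 and 0.15 (18 pairs), other pairs between -0.29 and 0.28. With 3 hearts a group these correlations cannot exclude a pairing. With the replicate block the counts were 2, 3, 5, 0 and 0. Over all probe sets, 1379, 990, 817, 424 and 0 calls ranged from 4 to 2555, 0 to 1571, 3 to 1414, 0 to 742 and 0 to 5 over the alternatives, and from 41 to 2285, 116 to 1090, 84 to 1206, 19 to 893 and 0 to 2 with an array left out. Signal over background limits these genes: 4 of the 24 probe sets averaged below the added 32.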
